A study of Homo sapiens with 6 samples.

Results

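Moesin (MSN), ezrin (EZR) and radixin (RDX) are the members of the ERM protein family, and the values below are the reads at their splice junctions in K562 cells. K562 is a human chronic myeloid leukaemia line. A junction was taken as a member when its intron lay, on the strand of the gene, within X:64808000-64961850 for MSN, 6:159186700-159240500 for EZR or 11:110045600-110167500 for RDX, in coordinates of build hg19. This gave 212 of the 780566 junctions listed in any of the 6 libraries: 99 in MSN, 54 in EZR and 59 in RDX. The family was chosen by measured values of these same libraries: the shares of reads at MSN splice sites, above all those of the upstream exons into the acceptor at 64936679. All MSN contrasts between the groups are therefore descriptions without a test, and tests are given for EZR and RDX alone.

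Both groups were K562 cells, with 3 libraries each. The control group carried a knock-in of wild-type U2AF1 and the other group carried U2AF1 S34F. U2AF1 is the small subunit of the factor that recognises the end of an intron, and S34F changes a serine in one of its zinc fingers to phenylalanine. The labels do not say how many clones or cultures the libraries came from, so the spread between libraries may be technical, and the p-values measure that spread only. The junction tables hold no base calls, so the substitution itself could not be checked in them. Markers of K562 cells and the partners of the ERM proteins were not analysed here, because gene models of hg19 were not used here.

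The libraries held between 18074706 (S34F replicate 2) and 39279169 (S34F replicate 3) uniquely mapped spliced reads. The 3 genes took 150754 of these reads in all, and the deepest library also had the highest MSN level. Of the 212 junctions, 58 were annotated and 154 were not, and 150 had under 10 reads over the 6 libraries. In 7 of them every read was multi-mapped, and these have no unique count. The motif at the intron ends was GT-AG in 206 junctions and GC-AG in 6.

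ERM proteins link the plasma membrane to the actin cortex. Their N-terminal FERM domain binds membrane lipids and the tails of membrane proteins, and their C-terminal end binds filamentous actin. The FERM domain and the C-terminal end also bind each other within the same molecule, which closes the protein, and binding of phosphoinositides with phosphorylation of a C-terminal threonine opens it. Moesin is the family member best known from blood cells, ezrin is best known from the microvilli of epithelia, and radixin was first described at cell junctions and is known from the canalicular membrane of the liver and the stereocilia of the inner ear.

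MSN has more than one first exon, and the start sites bear on the MSN results below. The RefSeq table used here lists 4 promoters for the 3 genes on GRCh38.p14, 2 of them for MSN. Both MSN promoters are shown as the 250 bases before the start site, because the upstream exons and the principal first exon are compared below. Capitals mark the letters GGGCGG on either strand, a match to the GC box.

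MSN upstream start, chrX:65588127-65588376, plus strand: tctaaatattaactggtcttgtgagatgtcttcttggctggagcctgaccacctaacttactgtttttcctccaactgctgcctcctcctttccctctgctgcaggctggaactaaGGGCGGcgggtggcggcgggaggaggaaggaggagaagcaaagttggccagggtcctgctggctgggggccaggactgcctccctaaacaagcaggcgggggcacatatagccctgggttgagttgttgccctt
MSN principal start, chrX:65667404-65667653, plus strand: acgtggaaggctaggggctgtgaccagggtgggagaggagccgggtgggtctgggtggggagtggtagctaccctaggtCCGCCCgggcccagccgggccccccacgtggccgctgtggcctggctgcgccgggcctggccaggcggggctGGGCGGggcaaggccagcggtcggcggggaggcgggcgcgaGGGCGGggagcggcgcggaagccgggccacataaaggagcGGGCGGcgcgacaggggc

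The upstream MSN window had a GC content of 57.2% and 1 match to GGGCGG, and the principal window had 78.0% and 4 matches. The EZR and RDX windows, at 80.8% and 82.0% GC with 3 matches each, were close to the principal MSN window in both respects. The median GC content of all 35116 listed promoters was 58.0%, and 42.6% of them held at least 1 GGGCGG. The letters TATAAA (10.7% of all promoters), CCAAT (32.0%) and AGATAA (9.17%) were in none of the 4 windows on either strand, and CACGTG (6.34%) was only in the principal MSN window, once. The MSN start sites lie 79277 nt apart on GRCh38.p14. In the junction tables, the outermost upstream donor of MSN and its principal first donor lie 79228 nt apart in hg19.

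Per junction of the main chain, MSN had the most reads and RDX the fewest in each of the 6 libraries. The main chain is the run of annotated junctions that take most reads at both of their splice sites. It had 12 junctions in MSN, 13 in EZR and 13 in RDX, and held 98.8%, 99.6% and 98.6% of the unique reads of the genes. Setting one junction beside another does not depend on the length of the transcript, so genes were compared by the median over their chain. The median was 51.6 ± 4.55 reads per 1000000 unique spliced reads of the library (RPM) for MSN in the wild-type libraries (SD, n = 3), 15.0 ± 5.03 for EZR and 6.34 ± 0.697 for RDX. The S34F libraries had 58.8 ± 14.4 for MSN, 16.1 ± 2.03 for EZR and 6.76 ± 0.736 for RDX (SD, n = 3). The ratio of the MSN to the EZR median was 2.57, 3.32 and 5.28 in the wild-type libraries and 2.79, 3.10 and 5.41 in the S34F libraries. The order MSN, EZR, RDX thus held in each library, while the size of the step from MSN to EZR varied within both groups.

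**Figure D1:**
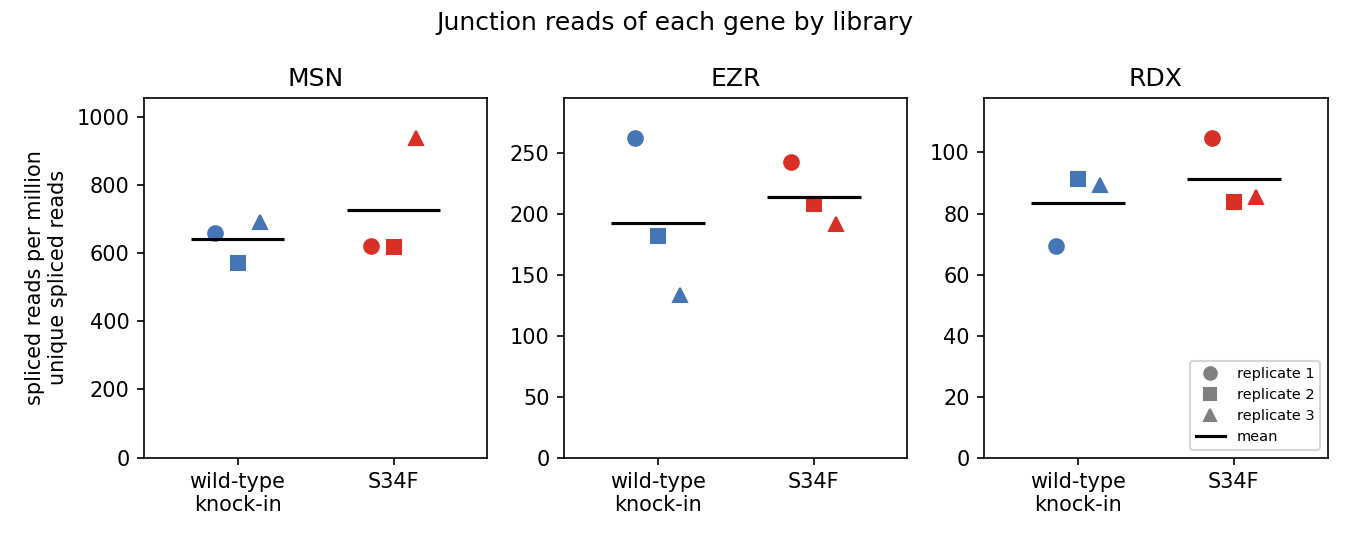
Level of MSN, EZR and RDX in RPM in each library (points, shaped by replicate) with the group mean (line), for wild-type knock-in and S34F cells; each panel has its own axis from 0. The groups overlap in all 3 genes, and S34F replicate 3, at 937, is the highest MSN library.

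No gene differed in level between the groups by more than its libraries varied. MSN summed over all its junctions gave 658, 570.1 and 691 RPM in the wild-type libraries and 621, 617 and 937 in the S34F libraries. S34F replicate 3 stood above all others, and the other S34F libraries lay within the wild-type range. The mean difference of 85.2 (SE 112) was -20.8 without that library. EZR gave 262, 182 and 134 in the wild-type libraries and 243, 208 and 192 in the S34F libraries. The wild-type libraries held both the highest and the lowest EZR value, and the S34F libraries lay between them. The difference in EZR was 21.5 (SE 40.4), with p = 0.6 in a two-sided exact permutation test. It was -8.06 without wild-type replicate 3 and 56.3 without wild-type replicate 1. RDX gave 69.2, 91.4 and 89.4 in the wild-type libraries and 105, 83.8 and 85.4 in the S34F libraries, with a difference of 7.97 (SE 9.77, p = 0.6 in the same exact test). The highest RDX library was S34F replicate 1 and the lowest was wild-type replicate 1. With 3 libraries against 3 the smallest p that this test can give is 0.1. Less RNA of a gene per cell and fewer cells that express it cannot be told apart in such bulk libraries.

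The junctions also showed how alike the 3 genes are in structure. Exon lengths read from the ends of successive main-chain introns were equal in all 3 genes over 10 successive exons: 84, 96, 275, 84, 147, 97, 164, 131, 161 and 93 nt, in this order. The run spans 1332 nt, or 444 codons, and 5 of its exons are multiples of 3 nt. It begins at 64936680 in MSN, just after the acceptor at 64936679. After the run the lengths part: the next exon had 225 nt in MSN, 252 nt in EZR and 243 nt in RDX. Before it, EZR has an internal exon of 85 nt and RDX one of 76 nt, while the MSN chain goes straight to the first exon of the principal transcript. Exons of the genes can thus be set side by side by their place in the run.

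**Figure D2:**
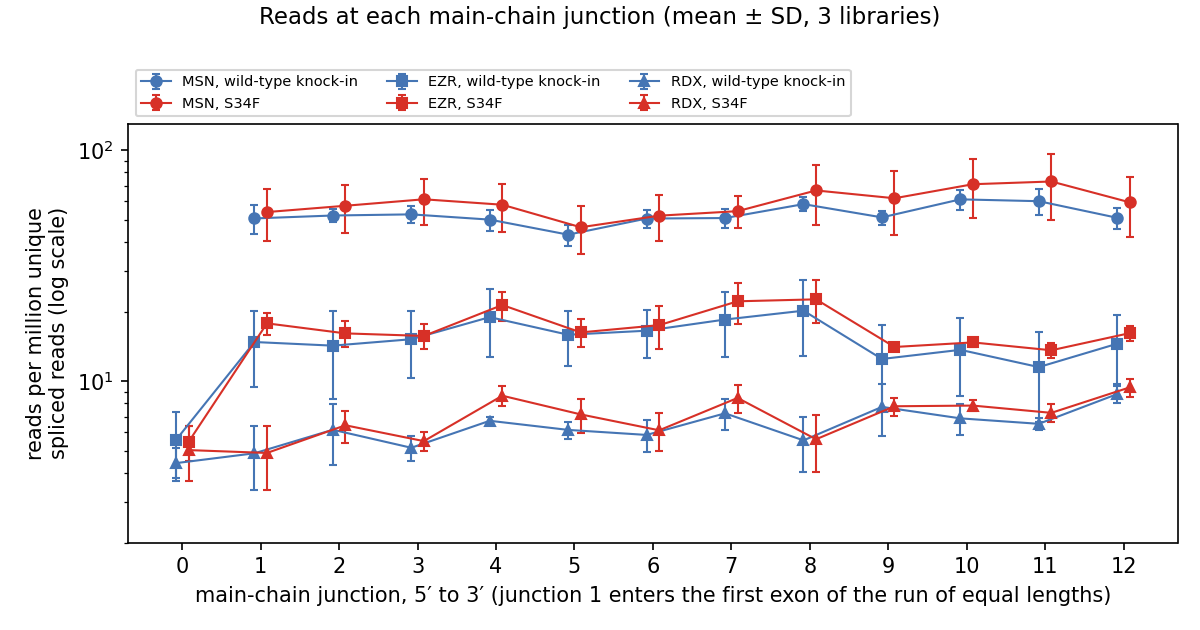
Mean RPM at each main-chain junction (points, bars are SD over 3 libraries, log axis), with junctions aligned so that number 1 enters the first exon of the run of equal lengths; EZR and RDX have a further junction, number 0, before it. MSN runs from 44.7 to 66.6 as a mean of all libraries, EZR from 5.51 to 21.4 and RDX from 4.72 to 9.09.

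Along the main chain, the wild-type and S34F libraries followed a similar profile in each gene. MSN ranged from 44.7 RPM at 64951053-64951699 to 66.6 at 64958480-64958831, as a mean over 6 libraries. EZR was lowest at its first junction, 159239199-159240348, where 820 reads were counted against 2459 at the next, and highest at 159191927-159192275. RDX ranged from 4.72 at its first junction, 110150482-110167191, to 9.09 at its last, 110102759-110103961. EZR also carried an annotated GC-AG intron in its chain, 159206616-159208139, which ends the 96 nt exon of the run and had 2319 reads. The ratio of reads at the first 3 chain junctions to those at the last 3 was 0.904 in wild-type and 0.857 in S34F libraries for MSN, 0.869 and 0.886 for EZR, and 0.691 and 0.664 for RDX, with overlapping groups in each case. The log2 ratio of S34F to wild-type means at single chain junctions was between 0.04 and 0.28 in MSN (median 0.21), between -0.03 and 0.27 in EZR (median 0.16) and between 0.0049 and 0.36 in RDX (median 0.10).

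Junction levels were tested over all 116337 junctions that passed a filter on low counts, with edgeR's quasi-likelihood test and Benjamini-Hochberg adjustment. An adjusted p under 0.05 was reached by 0.275% of them, 0.127% with a higher and 0.148% with a lower level in S34F. None of the 13 EZR and 13 RDX junctions tested reached it in edgeR or in DESeq2, while at an unadjusted p under 0.05 the count was 0 of 26 with either tool. Over all 116337 junctions, that count was 16154 with edgeR and 12136 with DESeq2. The median fitted log2 change was 0.13 in EZR and 0.08 in RDX, against 0.01 over all junctions tested. How often the groups separate over all junctions tested was not counted, so a count of separated junctions is not read as a result. With 3 libraries against 3, a full separation reaches no p below 0.1 in an exact permutation test. The groups did not overlap at 1 of the 26, the RDX junction 110128915-110134684 between the 275 nt exon and the second 84 nt exon of the run. It had 6.73 ± 0.254 RPM in wild-type and 8.64 ± 0.859 in S34F libraries (SD, n = 3). Its log2 change of 0.34 had an unadjusted p of 0.0627 and an adjusted p of 0.386 in edgeR. The 95% interval from a normal quantile, 0.01 to 0.66, is narrower than this test implies, so its leaving out 0 is not a result. In EZR the smallest adjusted p of edgeR was 0.700.

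The upstream exons of MSN hold the contrast by which the gene was chosen. In S34F libraries a larger share of their reads joined the acceptor of the principal transcript, and a smaller share joined acceptors nearer by. The upstream region has an outer donor at 64808493 and an inner donor at 64808949. The inner donor ends an exon of 183 nt (64808766-64808948) that the outer donor joins through a short intron, 64808493-64808765. That short intron had 270 reads and the inner donor 290, so by these totals the 183 nt exon is mainly internal and not a first exon. The balance varied between libraries. The short intron had 49, 34 and 68 reads in the wild-type libraries, against 46, 23 and 69 at the inner donor. In the S34F libraries it had 48, 38 and 33, against 64, 35 and 53. Reads also joined either donor directly to the acceptor at 64936679, the start of the run of equal exons. These introns are 128187 nt long from the outer donor and 127731 nt from the inner one, against 48959 nt from the principal donor at 64887721.

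The inner donor joined the acceptor at 64936679 in 12 of 46, 4 of 23 and 16 of 69 reads in the wild-type libraries. In the S34F libraries it did so in 42 of 64, 28 of 35 and 40 of 53. These are shares of 26.1%, 17.4% and 23.2% against 65.6%, 80.0% and 75.5%, and every S34F library lies above every wild-type library. The mean shares were 22.2% ± 4.43 and 73.7% ± 7.35 (SD, n = 3), a difference of 51.5 percentage points (SE 4.95). The reads are few: the 95% Clopper-Pearson interval, which covers counting error only, reached from 4.95% to 38.8% in wild-type replicate 2 and from 52.7% to 77.1% in S34F replicate 1. The same junction is not in the annotation the tables refer to.

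The acceptor with the opposite contrast was at 64813132, 4184 nt downstream of the inner donor. It is an annotated site through its junction from the outer donor, while the junction from the inner donor is unannotated. It took 24, 14 and 38 reads of the inner donor in the wild-type libraries and 17, 3 and 5 in the S34F libraries. The mean share was 56.0% ± 4.43 against 14.9% ± 10.1 (SD, n = 3), with no overlap. An acceptor at 64844522 took 7.49% in wild-type and 0.521% in S34F libraries, on 12 reads in all, and one at 64809525 took 6.28% and 3.25%, on 14 reads. One at 64820541 went the other way in its means, 3.62% and 7.67% on 15 reads, with overlapping groups.

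The outer donor showed a smaller contrast of the same sign. It joined 64936679 in 14 of 72, 8 of 45 and 22 of 107 reads in the wild-type libraries and in 29 of 77, 24 of 68 and 15 of 52 in the S34F libraries. The means were 19.3% ± 1.40 and 33.9% ± 4.56 (SD, n = 3), and the groups did not overlap. Its most used acceptor was 64808765, the start of the 183 nt exon, at 69.1% ± 6.06 and 60.6% ± 4.09 (SD, n = 3), again with no overlap. Its share into 64813132 was 6.83% and 2.11%, with 0 of 45 reads in wild-type replicate 2, which allows a share of up to 6.67%, and 0 of 77 in S34F replicate 1, which allows up to 3.90%. These limits are for unique reads: this junction also had 18 multi-mapped reads, 2 of them in wild-type replicate 2 and 5 in S34F replicate 1.

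**Figure D3:**
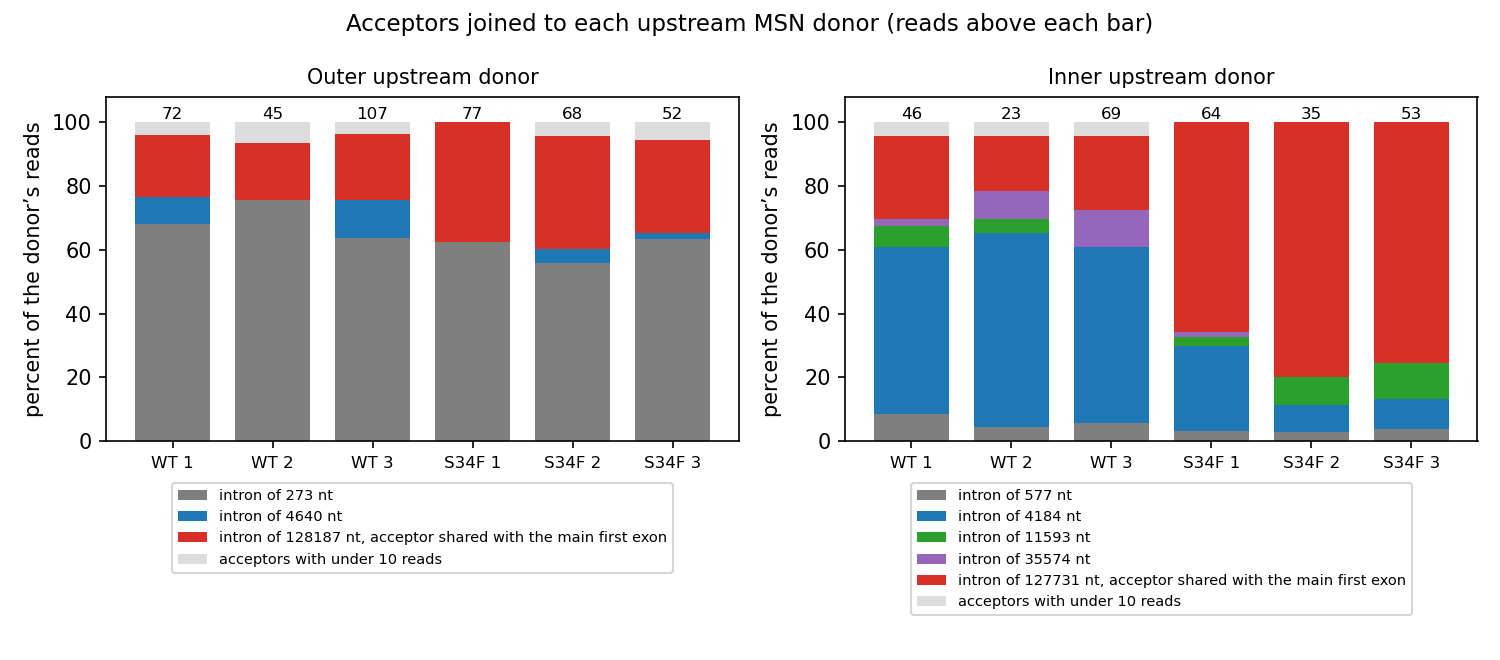
Share of the reads of the outer (left) and inner (right) upstream MSN donor that joined each acceptor, in percent, with a stacked bar for each library and its number of reads above it; acceptors are named by intron length. The intron to the acceptor shared with the main first exon (red) takes 17.4% to 26.1% of the inner donor's reads in wild-type and 65.6% to 80.0% in S34F libraries.

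With both donors pooled and the short intron between their exons left out, 37.7%, 35.3% and 35.2% of the reads entered 64936679 in the wild-type libraries and 76.3%, 80.0% and 76.4% in the S34F libraries. The difference of the means was 41.5 points (SE 1.46). This SE reflects only the spread of the shares within each group, and that spread was smaller than the counting error of single libraries. The 95% Clopper-Pearson interval reached from 19.7% to 53.5% in wild-type replicate 2, on 34 reads, and from 64.9% to 85.6% in S34F replicate 3, on 72. The SE is thus not a measure of precision. Pooling the donors was chosen after their values were seen. The number of reads that left the upstream donors overlapped between the groups. The outer donor had 3.39 ± 1.92 RPM in wild-type and 2.79 ± 1.29 in S34F libraries, and the inner donor had 2.10 ± 1.34 and 2.00 ± 0.692 (SD, n = 3). Reads from the inner donor into 64936679 were 0.472, 0.160 and 0.826 RPM in the wild-type libraries and 1.79, 1.55 and 1.02 in the S34F libraries. These do not overlap, while reads into 64813132, at 0.944, 0.562 and 1.96 against 0.725, 0.166 and 0.127 RPM, do.

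Seen from the acceptor, the upstream exons are a small part. Of 8691 reads into 64936679, 8116 came from the principal donor, 254 from the upstream donors and 321 from 11 donors in between. The principal donor supplied 95.2% ± 1.10 of the reads in wild-type and 91.7% ± 1.47 in S34F libraries (SD, n = 3), without overlap. The upstream donors supplied 2.07% ± 1.11 and 4.53% ± 2.35, and the donors in between 2.69% ± 1.09 and 3.78% ± 1.43 (SD, n = 3). Both of these overlap between the groups, S34F replicate 3 having the lowest upstream share of its group at 1.88%.

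The donors between the principal first exon and 64936679 lie within the first intron of the principal transcript. The 4 of them with at least 10 reads are at 64888248, 64916941, 64921504 and 64923554, and their junctions into the acceptor had 52, 124, 26 and 99 reads, in this order. Of these, 3 end small exons that a junction also enters: 36 nt at 64888212-64888247, 129 nt at 64921375-64921503, and 106 or 86 nt ending at 64923553. The donor at 64916941 had only 5 reads at acceptors within 500 nt upstream of it, against 124 reads leaving it for 64936679. It supplied 0.634%, 0.911% and 0.864% of the acceptor's reads in the wild-type libraries and 1.17%, 1.13% and 2.43% in the S34F libraries, which do not overlap. The highest value, on 71 of 2926 reads, was again in S34F replicate 3.

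The same place in EZR and RDX is the acceptor of the first 84 nt exon of the run, and it was entered almost only from the main donor in both genes. The main donor there ends an internal exon, of 85 nt in EZR and 76 nt in RDX, while in MSN it ends the first exon. Donors into the acceptor of that internal exon were not compared here, so these shares do not measure first exon choice in EZR and RDX. Donors other than the main one took 5.71%, 3.55% and 5.01% of the MSN reads in the wild-type libraries and 9.96%, 7.78% and 7.18% in the S34F libraries. The EZR shares were 0.677% ± 0.761 for wild type and 0.336% ± 0.138 for S34F, on 10 reads in all. Those of RDX were 0.556% ± 0.962 and 0.881% ± 0.440, on 5 reads (SD, n = 3 throughout). The EZR and RDX groups overlap, and 2 of the 3 wild-type RDX libraries had no such read, which allows a share of up to 3.70% and 2.26%.

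**Figure D4:**
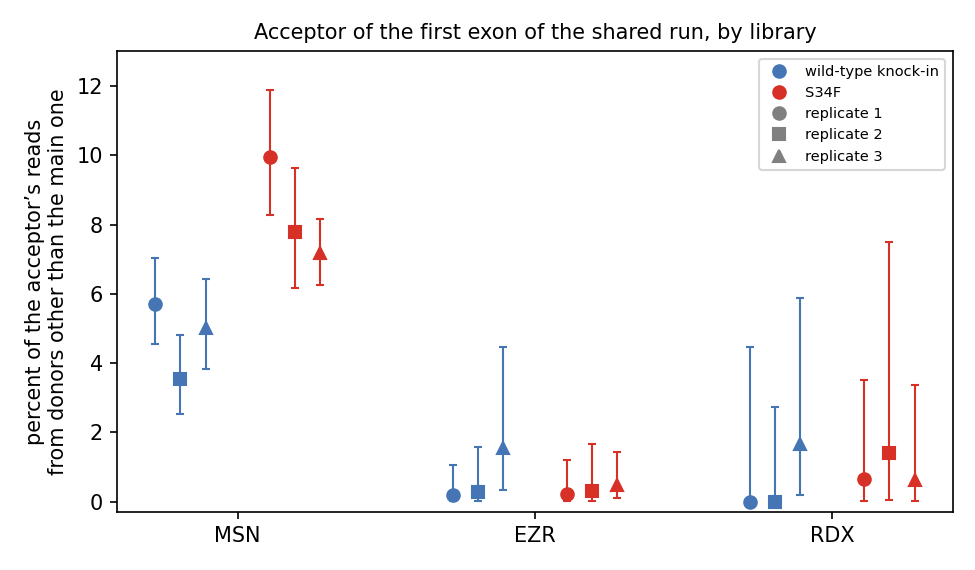
Percent of reads into the acceptor of the first exon of the run of equal lengths that came from donors other than the main one, for each library (points, bars are 95% Clopper-Pearson intervals). MSN lies between 3.55% and 5.71% in wild-type and between 7.18% and 9.96% in S34F libraries, while no EZR or RDX library exceeds 1.67%. The main donor ends the first exon in MSN and an internal exon in EZR and RDX.

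Choice of splice sites was tested over the whole table in both directions. Acceptor usage is the share of a donor's reads that goes to each acceptor, and donor usage is the share of an acceptor's reads that comes from each donor. An event was called when its adjusted p in edgeR was under 0.05 and the gap between the mean shares was 10 percentage points or more. This was met by 2.12% of 51522 events in acceptor usage (1.03% higher and 1.09% lower in S34F) and by 0.934% of 48269 in donor usage (0.458% higher and 0.476% lower). MSN events were part of these fits, but their test outcomes are not given here. The values of these libraries chose MSN, so a test on them would add nothing to the shares above.

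EZR and RDX had 0 calls in either direction with edgeR and with DESeq2. Their share gaps were at most 1.66 points in acceptor usage and 2.39 points in donor usage. These lie under the gap that a call needs, so no p-value could have made a call, and the 0 is not a test result. In acceptor usage 5 EZR and 4 RDX events were tested, with smallest adjusted p-values of 0.436 and 0.529 in edgeR. In donor usage 7 EZR and 4 RDX events gave smallest values of 0.398 and 0.443. None of these 20 events had an unadjusted p under 0.05 in edgeR or DESeq2, and limma on log2 odds, which also called 0, had 1, an EZR donor. Over all events, edgeR had 10269 of 51522 at that level in acceptor usage and 8331 of 48269 in donor usage. DESeq2 had 6111 and 5914, and limma 9348 and 7559. The median difference in log2 odds was 0.28 in EZR and 0.01 in RDX for acceptor usage, against 0.00 over all events, and -0.08 and -0.03 for donor usage, against 0.01.

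The alternative splicing seen in EZR and RDX was rare, and its intervals are wide. In RDX the annotated junction 110128915-110143260 leaves out the 96 nt and 275 nt exons of the run, 371 nt together. It had 3, 5 and 13 reads in the wild-type libraries and 6, 3 and 6 in the S34F libraries, and wild-type replicate 3 stood highest. Its difference in log2 odds, S34F against wild type, was -0.75 (SE 0.60, 95% interval -1.92 to 0.42, adjusted p = 0.529 in edgeR) in acceptor usage, and -1.02 (SE 0.64, adjusted p = 0.443 in edgeR) in donor usage. Without wild-type replicate 3 these were -0.09 and -0.13. Another annotated RDX junction, 110108378-110108511, had 23 reads and a log2 odds difference of 0.10 (95% interval -1.36 to 1.56, adjusted p = 0.966 in edgeR).

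In EZR, the unannotated junction 159190451-159191795 leaves out the 161 nt exon of the run. It had 2, 0 and 0 reads in the wild-type libraries and 2, 4 and 2 in the S34F libraries, and a log2 odds difference of 1.56 (95% interval -0.51 to 3.64, adjusted p = 0.436 in edgeR). The junction 159206616-159207598, also unannotated, had 9 of its 13 reads in wild-type replicate 1 (log2 odds difference -1.72, adjusted p = 0.422 in edgeR). The annotated junction 159209512-159210319 had 16 reads, 7 of them in wild-type replicate 3 (log2 odds difference -1.13, adjusted p = 0.560 in edgeR). The remaining unannotated junctions of EZR and RDX had at most 8 reads each.

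Within the run of equal exons, skipping could be set side by side in the 3 genes for the 96 nt exon, which codes for part of the FERM domain. The junction that leaves out this exon alone had 85 unique reads in MSN, 9 in EZR and 7 in RDX, and is annotated in EZR and RDX but not in MSN. Multi-mapped reads there came to 0 in MSN, 53 in EZR and 14 in RDX, so the order of the genes depends on the reads that are counted. In MSN it had 8, 8 and 7 reads in the wild-type libraries and 10, 15 and 37 in the S34F libraries, or 0.631% ± 0.0327 and 1.21% ± 0.374 (SD, n = 3), without overlap. The share is the skipping reads divided by these reads plus the mean of the junctions on either side of the exon. In MSN the nearest libraries of the groups were wild-type replicate 2 at 0.657%, on 8 skipping reads, and S34F replicate 1 at 0.827%, on 10. Few reads set them apart, and the small wild-type SD does not measure counting error. On unique reads the shares were 0.191% and 0.541% in EZR, and 0.547% and 1.27% in RDX, with overlapping groups. With multi-mapped reads added, a count chosen after seeing the data, they were 2.91% and 2.47% in EZR and 2.68% and 2.24% in RDX, again with overlap, so the sign of the difference turned in both genes. The MSN shares were then 0.624% and 1.20%. A 93 nt exon of MSN was left out by 16 reads, 1, 1 and 0 in the wild-type libraries and 4, 1 and 9 in the S34F libraries. The mean shares were 0.0457% and 0.205%. The groups did not overlap, but wild-type replicate 2 at 0.0763% and S34F replicate 2 at 0.0927% had 1 read each. Only their reads at the flanking junctions set these 2 libraries apart.

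Unannotated junctions as a whole took a small and similar part of each gene in both groups. They held 0.767% of MSN reads in wild-type and 0.886% in S34F libraries, 0.295% and 0.311% of EZR reads, and 0.738% and 0.578% of RDX reads, and the groups overlapped in all 3 genes. Over all junctions of a library the share was between 1.03% and 1.38%. Multi-mapped reads came to 1.30%, 1.43% and 1.91% of the reads of MSN, EZR and RDX.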

How the data were processed

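Poly(A)+ RNA of K562 cells was sequenced as paired-end reads, per the labels' protocols, in 3 wild-type knock-in and 3 S34F libraries. STAR and build hg19 are named in the submitters' processing notes. The aligner version, annotation and junction filters are not given in the sources used here. The deposited junction tables hold whole-number counts of unique and multi-mapped reads per junction, with no normalization, per the labels and the values.

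The tables were joined on position, and an unlisted junction was counted as 0. Unique counts were used. Events needed 20 reads at the site in every library and 10 reads on each side in all. Tests were edgeR 4.0.16 (R 4.3.3) quasi-likelihood fits over all events, with library intercepts and a term for S34F in the odds; junction levels used TMM scaling. DESeq2 1.42.0 and limma 3.58.1 were alternatives, as were other filters and leaving out each library. The fits were tested on simulated data. Intervals are estimate ± normal quantile times SE for log2 changes, and Clopper-Pearson for shares. Those for log2 changes are narrower than the quasi-likelihood test implies.

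The members, lists and rules were chosen with earlier results of these data known. Junctions named are the main-chain extremes, those into 64936679 with at least 10 reads, those with the largest share differences, any call in EZR or RDX, and the most-read unannotated ones; the 96 nt and 93 nt exon skips and the EZR and RDX skips set beside them were singled out after their values were seen. Replicate numbers are shared by the groups, but same-numbered libraries did not deviate together (correlations -0.18, -0.14 and -0.02), so the main fits hold no replicate block. Promoters come from RefSeq on GRCh38.p14; all 3 symbols matched. Coordinates were not converted between builds.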

Additional observations from a re-analysis of the deposited data

Results flagged for a closer look

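Both results here come from reads that the comparisons above leave out, and neither was tested. At junctions coded on the strand opposite to MSN within its window, S34F libraries had 0.0689 more reads per 1000000 unique spliced reads (RPM) than wild-type libraries: 0.0852, 0.111 and 0.0509 against 0, 0.0401 and 0. This rests on 7 reads in 9 junctions, with at most 2 reads in a library.

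Multi-mapped reads at RDX junctions, which the unique counts exclude, were 0.404 RPM higher in S34F libraries. Wild-type libraries had 1.53, 1.60 and 1.34, S34F libraries 2.13, 1.88 and 1.68, without overlap. The unique RDX level overlapped between the groups, and multi-mapped reads of MSN and EZR overlapped too. As a percent of all reads at RDX junctions, multi-mapped reads overlapped as well, at 2.17, 1.73 and 1.48 against 1.99, 2.20 and 1.93. Over whole libraries, each S34F library also had more multi-mapped reads per unique spliced read than any wild-type library. The direction is therefore not particular to RDX.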

How the results depend on the processing

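The call counts over all events moved with the processing. Acceptor usage, with 1092 calls, gave 150 with DESeq2, 0 with limma (9348 at an unadjusted p under 0.05), 495 with no low-count filter, 681 with at least 50 reads at the site, 2392 with no minimum difference, 474 with 20 points, and 77 to 1932 when a library was left out. Donor usage, with 451, gave 183, 0 (7559 unadjusted), 208, 301, 983 and 218 in the same order, and 4 to 1208 when a library was left out. Junction level, with 320, gave 1467 with DESeq2, 513 with library totals, 2904 with no filter, and 0 (without wild-type replicate 2, with 11792 unadjusted) to 666.

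With the replicate number as a block, calls came to 922 in acceptor usage, 348 in donor usage and 48 in junction level. Same-numbered libraries did not deviate together, and the labels do not say what the numbers mean.

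EZR and RDX had 0 calls under all 41 alternatives run, but in more than 5 of these the 0 was fixed by the setting. Limma in both usage tests and junction level without wild-type replicate 2 made no call at all, and the 20-point rule can only remove calls. Usage refits of the same events, such as DESeq2 and the replicate block, could not call either. Their share gaps in EZR and RDX were at most 2.39 points, under the 10 points a call needs. Of 81 refits of 5 named EZR and RDX junctions, 78 kept their direction, with no call. The exceptions are RDX 110108378-110108511 in donor usage, at -0.15 with the replicate block, -0.53 without wild-type replicate 2 and -0.70 without S34F replicate 1, against a highest value of 0.66 without wild-type replicate 1. Too few reads were left to fit EZR 159206616-159207598 without wild-type replicate 1, or 159209512-159210319 without wild-type replicate 3, the library with the highest count in each case. EZR 159190451-159191795, with 10 reads in all, could be refitted only without wild-type replicate 2 or 3, which held none of its reads. Its direction was therefore not checked against leaving out any library that had reads of it. Leaving out 1 library moved the level difference between -20.8 and 139 RPM in MSN, -8.06 and 56.3 in EZR (negative without wild-type replicate 3), and 0.934 and 12.0 in RDX. In MSN, it moved the difference at 64936679 between 1.53 and 3.78 points for the upstream donors' share of its reads; with annotated junctions alone, which leave out the inner donor, that difference was 0.735 against 2.46. The inner donor's share moved between 48.3 and 55.5 points and that of both donors together between 40.3 and 42.3, the last 2 being results chosen after seeing the data. Depth limits the rare junctions: 150 of 212 had under 10 reads.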
